A study of Mus musculus with 12 samples.

Results

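Meg3, Rian and Mirg are 3 long non-coding RNA genes that follow one another on the forward strand of mouse chromosome 12. The data examined here were every row of a table of transcript counts whose Ensembl transcript identifier belongs to one of these genes in GENCODE release M21 (mouse genome build GRCm38), taken row by row and summed per gene. The rule selected 40 of the 48033 rows of the table, 11 of Meg3, 17 of Rian and 12 of Mirg, all annotated as long intergenic non-coding RNA (lincRNA), and they form 3 of its 22115 gene sums. RNA had been sequenced from the hippocampus and the cerebral cortex of 7-month-old 5 × FAD mice and of their non-transgenic counterparts (WT), all on the C57BL/6J background. 5 × FAD mice carry human APP and presenilin 1 transgenes with familial Alzheimer's disease mutations, driven by neuronal Thy1 elements, so the transgenes act in neurons from an engineered promoter and not from the mouse genes. There were 4 groups of 3 libraries, WT hippocampus, 5 × FAD hippocampus, WT cortex and 5 × FAD cortex, or 12 libraries in all. Both regions were stated to have been taken from each mouse, but the labels do not say which libraries share a mouse.

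The 3 genes belong to the Dlk1-Dio3 imprinted region, where the maternally inherited chromosome makes non-coding RNAs and the paternally inherited chromosome makes the mRNAs of Dlk1, Rtl1 and Dio3. Meg3 (also called Gtl2) is a largely nuclear RNA that is abundant in neurons, Rian is the host of a series of C/D box small nucleolar RNAs (snoRNAs), and Mirg is the host of many microRNAs (miRNAs), short RNAs that pair through their seed with target mRNAs. The counts do not separate the maternal from the paternal copy, and the libraries were made from long RNA, so neither the parental origin nor the level of a mature snoRNA or miRNA was measured.

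On GRCm38, Meg3 (ENSMUSG00000021268) spans chr12:109541001-109571726, Rian (ENSMUSG00000097451) spans chr12:109603940-109661716 and Mirg (ENSMUSG00000097391) spans chr12:109729764-109749460. Meg3 and Rian are separated by 32.2 kb, Rian and Mirg by 68.0 kb, and the 3 genes with the gaps between them cover 208 kb. Meg3 holds 2 annotated miRNA genes, both inside an exon of at least 1 of its rows. Rian holds 13 snoRNA genes, 6 of them inside an exon, and 4 miRNA genes, none inside an exon. Mirg holds 15 miRNA genes within its span, 4 of them inside an exon (Mir134, Mir485, Mir377 and Mir410). Among the 15, Gm24321 lies on the reverse strand, opposite Mir409. The other miRNA and snoRNA genes lie in introns or reach over the end of an exon.

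The small RNAs that give these host genes their interest are shown by their RefSeq mature sequences, because the rows described below carry them in an exon or an intron. RefSeq listed 3 mature sequences inside Meg3, 6 inside Rian and 26, from 14 miRNA genes, inside Mirg. The following 9 are those of the exonic miRNA genes of Meg3 and Mirg with 1 arm each, the best known miRNA of Rian, and the only pair in Mirg with a common seed. Capitals mark the seed, bases 2 to 8.
miR-1906: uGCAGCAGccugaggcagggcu
miR-770-3p: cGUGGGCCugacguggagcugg
miR-370-3p: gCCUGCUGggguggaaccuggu
miR-134-5p: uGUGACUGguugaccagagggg
miR-485-3p: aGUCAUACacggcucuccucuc
miR-377-3p: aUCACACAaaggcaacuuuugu
miR-410-3p: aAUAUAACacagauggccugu
miR-453: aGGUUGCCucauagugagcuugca
miR-496a-5p: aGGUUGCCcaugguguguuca
The 26 mature sequences of Mirg had 25 different seeds, and miR-453 and miR-496a-5p were the only ones to share one, GGUUGCC. The 6 mature sequences of Rian had 6 different seeds, and the 3 of Meg3 had 3.

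Promoter windows are shown because the rows of Meg3 and Mirg begin at more than 1 place. Counts were divided unequally between the rows of these annotated starts, and where transcription began was not measured. RefSeq windows on GRCm38.p6 run from 250 bases before to 50 bases after a start site, all on the forward strand. Each was searched on both strands for 5 motifs, and matches are in capitals. The cyclic AMP response element was searched for as TGACGTCA. The TATA box, where the general transcription machinery assembles, was searched for as TATAAA. The box bound by the factor NF-Y was searched for as CCAAT. The hexamer bound by ZFP57, a zinc finger protein that keeps imprints, was searched for as TGCCGC. The GC box, a site of Sp1 family factors, was searched for as GGGCGG.
Meg3 first start, chr12:109540746-109541045: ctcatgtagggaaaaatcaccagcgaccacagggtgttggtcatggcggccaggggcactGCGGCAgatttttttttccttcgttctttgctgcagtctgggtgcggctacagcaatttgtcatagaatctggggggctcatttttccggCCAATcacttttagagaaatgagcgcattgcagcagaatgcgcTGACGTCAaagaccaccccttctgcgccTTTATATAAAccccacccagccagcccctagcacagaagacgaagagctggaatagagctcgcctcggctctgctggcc
Meg3 second start, chr12:109545148-109545447: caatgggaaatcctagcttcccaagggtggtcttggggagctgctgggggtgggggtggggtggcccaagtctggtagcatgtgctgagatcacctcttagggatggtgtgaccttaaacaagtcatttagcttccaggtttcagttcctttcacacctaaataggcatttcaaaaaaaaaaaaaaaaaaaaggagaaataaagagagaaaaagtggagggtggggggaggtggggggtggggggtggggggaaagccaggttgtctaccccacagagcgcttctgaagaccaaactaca
Mirg RefSeq start, chr12:109734731-109735030: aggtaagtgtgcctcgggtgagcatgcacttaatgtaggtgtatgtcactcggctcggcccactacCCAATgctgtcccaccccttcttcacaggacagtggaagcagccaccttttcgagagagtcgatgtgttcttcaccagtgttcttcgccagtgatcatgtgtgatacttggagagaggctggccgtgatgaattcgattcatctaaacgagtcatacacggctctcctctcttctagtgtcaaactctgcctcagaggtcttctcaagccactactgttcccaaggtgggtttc
The first Meg3 window held 1 cyclic AMP response element, at -57 from the start site, and a TATA box on both strands, at -29 and -25, where the matches overlap. The response element was present in 1.79% and the TATA box in 13.6% of all 32817 promoter windows in the same RefSeq set. The same window held 1 NF-Y box and 1 ZFP57 hexamer, which were present in 37.4% and 11.6% of all windows. The second Meg3 window and the Rian window (chr12:109603695-109603994) held none of the 5 motifs. The Mirg window held 1 NF-Y box, and the GC box, present in 35.6% of all windows, was in none of the 4.

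The 12 libraries held 3517967 to 5014389 counts each, so each library gave the 3 genes between 58352 and 99444 counts, or 1.47% to 2.34% of its total. Before the results, it has to be said that the libraries labelled 5 × FAD 1 and 5 × FAD 2 stood apart in both regions: Xist, the RNA that coats an inactive X chromosome, had 30468 to 46630 counts in those 4 libraries and at most 25 in the other 8, and transcripts of Y-linked genes had 0 counts in the 4 and 1074 to 1661 in the 8. The series states 2 females and 1 male per group, which holds for these levels in the 5 × FAD groups but not in the WT groups. Each comparison of gene sums below that holds 5 × FAD libraries is therefore also given without 5 × FAD 1 and 2. Row-by-row values of those comparisons include these libraries, and for rows only the number called is given without them. Most rows of protein-coding genes in this table are non-coding versions of them (41.9% of the annotated rows are retained-intron transcripts and 31.3% processed transcripts), so marker genes were read through those versions. Of the tissue markers, Zbtb20 was at 106 to 125 CPM (read counts scaled for the size of the library) in the 6 hippocampus libraries and 25.7 to 48.0 in the 6 cortex libraries, Lct had 1 to 9 counts in every hippocampus library and 0 in every cortex library, and Rorb was at 4.24 to 8.52 CPM in hippocampus and 11.5 to 15.3 in cortex. The cortex markers Tbr1 (0.9985 to 5.92 CPM in hippocampus and 4.27 to 9.88 in cortex) and Cux2 (11.8 to 24.7 and 16.8 to 26.3) overlapped between the regions. Prox1, Neurod2, Wfs1 and Fezf2 had no row among the files used here. Bulk tissue cannot tell fewer cells of a type from less RNA per cell, which holds for every comparison below.

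**Figure D1:**
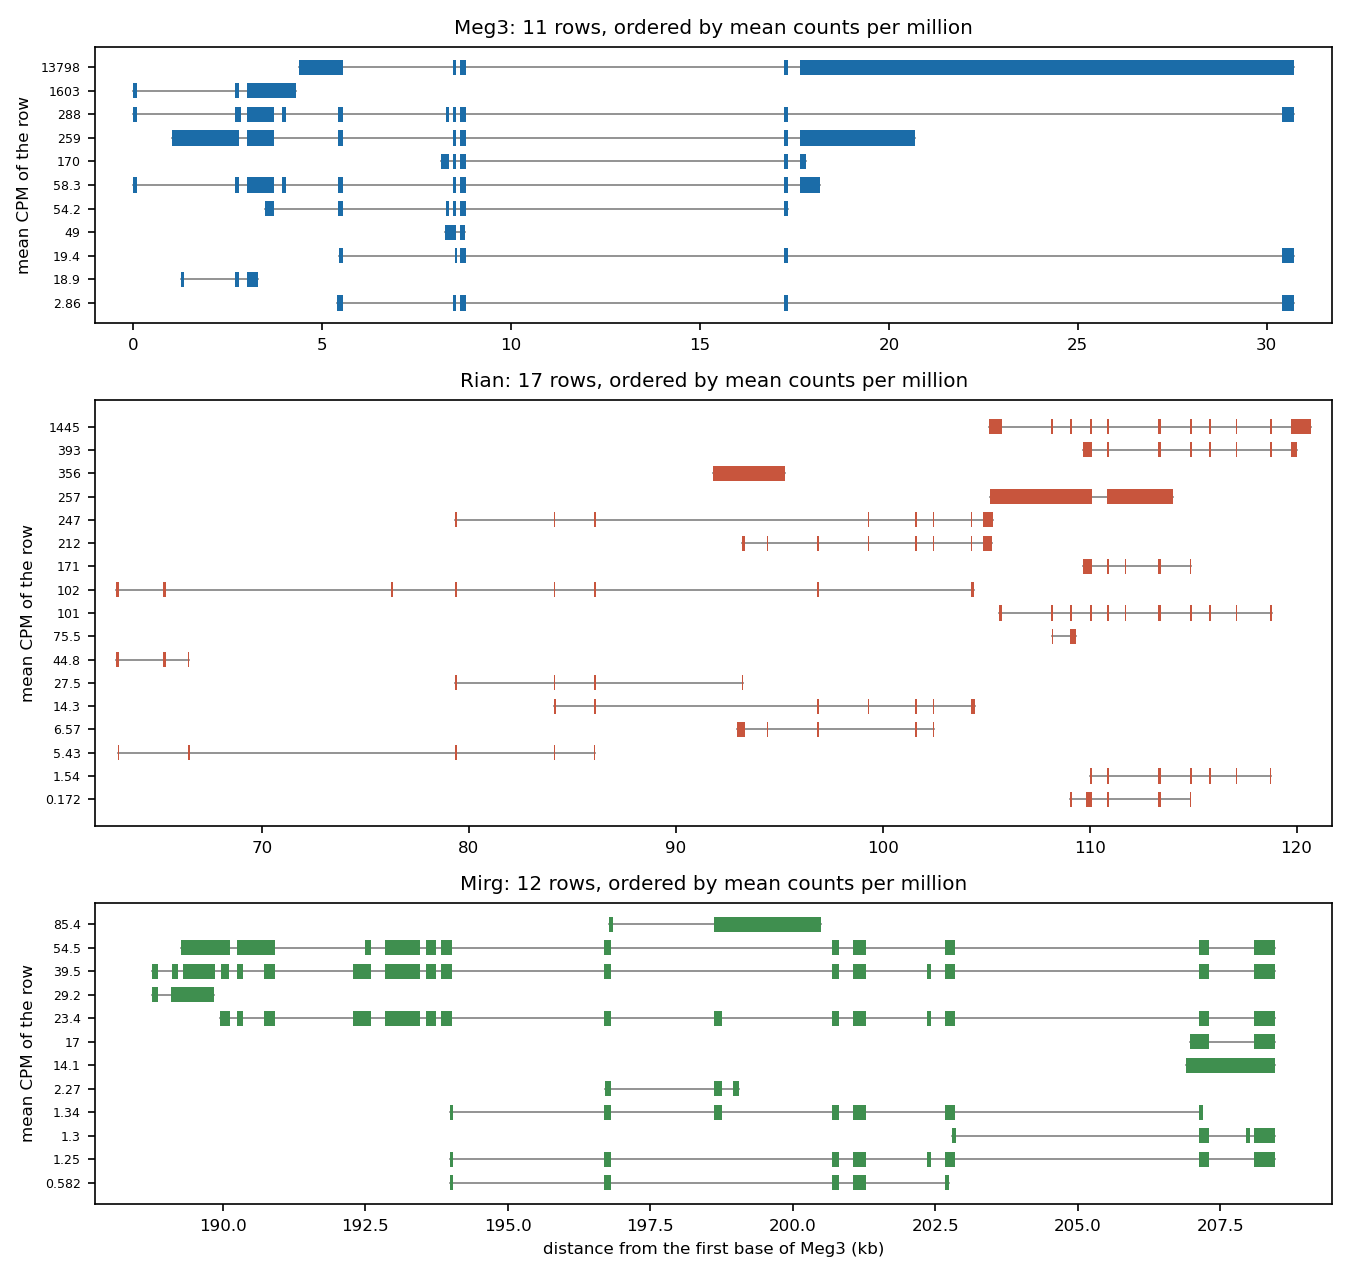
Exon maps of the 40 rows of Meg3, Rian and Mirg; the horizontal axis is the distance from the first base of Meg3 in kb, boxes are exons, lines are introns, and each row is labelled with its mean CPM over 12 libraries. The row with most counts is at the top of each panel: it starts 4.40 kb into Meg3, 42.2 kb into Rian and 8.02 kb into Mirg.

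The counts of each gene were spread unevenly over its rows. Meg3 was dominated by 1 row, ENSMUST00000146701, which is 14548 bases long and took 83.4% to 86.0% of the gene's counts in every library. It starts at the second start site shown above, 4397 bases into the gene. The 3 rows that start at the first start site, whose window holds the response element and the TATA box, took 10.8% to 13.0%. Per length the order was different: ENSMUST00000129245, a row of 1498 bases from the first start, averaged 1070.2 CPM per kb and ENSMUST00000146701 averaged 948 CPM per kb, while the other 9 Meg3 rows were at or below 245 CPM per kb.

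Rian had its counts near its 3′ end. The top row ENSMUST00000181253, 2355 bases in 11 exons, starts 42.2 kb into the gene and took 36.9% to 45.1% of the counts, and the 2 rows that begin near the first base of Rian took 3.45% to 5.17%. The top 3 rows of Rian together took 54.4% to 66.9%, against 95.2% to 96.7% for the top 3 rows of Meg3 and 54.3% to 73.1% for those of Mirg. The plot of row shares by library shows that the division was narrow for Meg3 and wide for Mirg.

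Mirg counts lay mostly in rows that are not annotated from its RefSeq start. The 3 rows that start there had 3 to 53 counts per library together, 0.241% to 3.41% of the gene. The 2 rows that start at the gene's first base in GENCODE, 5217 bases upstream, had 201 to 391 counts, or 21.3% to 34.8%. Rows annotated from the upstream start thus held more counts than rows annotated from the RefSeq start. ENSMUST00000183144, at the upstream start, has 1 exonic base of its own, and the rows at the RefSeq start have none. The other row at the upstream start, ENSMUST00000182074, has 81 bases of its own (9.53%) and shares the rest. These counts therefore depend on how shared reads were divided, and where transcription began was not measured. The first exon of ENSMUST00000183144, chr12:109729764-109729863 on the forward strand, is shown in full.
Mirg upstream exon: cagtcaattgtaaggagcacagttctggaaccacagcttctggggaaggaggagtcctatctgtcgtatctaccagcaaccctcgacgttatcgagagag
The row with most counts, ENSMUST00000181496, starts 8.02 kb into Mirg, has 2 exons, spans Mir154, Mir496a and Mir377 and took 19.9% to 41.1% of the gene's counts.

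**Figure D2:**
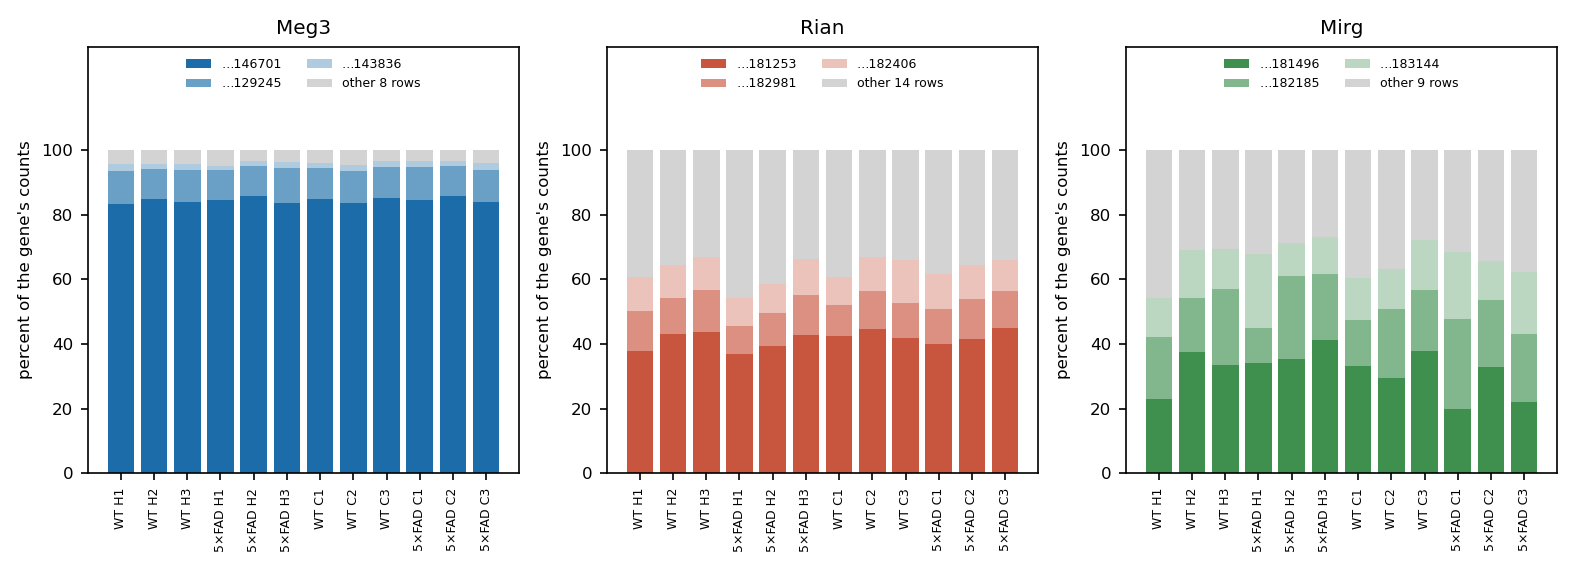
Percent of each gene's counts taken by its 3 rows with the highest mean CPM and by its other rows, in each of the 12 libraries (WT or 5 × FAD; H, hippocampus; C, cortex). ENSMUST00000146701 takes 83.4% to 86.0% of Meg3 in every library, whereas the top row of Mirg varies from 19.9% to 41.1%.

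As gene sums, Meg3 had the second highest total of all 22115 gene sums, Rian was number 13 and Mirg number 683, an order that also depends on transcript length. Levels below are in CPM after TMM scaling of the 12 libraries, and replicates are given in the order 1, 2 and 3. Meg3 was at 14959.7, 14843 and 14817 CPM in WT hippocampus, at 12059, 12747 and 19604 in 5 × FAD hippocampus, at 17399, 17492 and 19559.9 in WT cortex and at 17223, 15236 and 18059 in 5 × FAD cortex. The WT hippocampus libraries lay close together, and the 5 × FAD hippocampus held both the lowest 2 values and the highest value of all 12 libraries. The group means were 14873 ± 76.0 in WT hippocampus, 14803 ± 4172 in 5 × FAD hippocampus, 18150.1 ± 1222 in WT cortex and 16839 ± 1450.0 in 5 × FAD cortex (SD, n = 3 each).

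Rian was at 3657, 3526 and 3469.5 CPM in WT hippocampus, at 2297, 3362 and 3112 in 5 × FAD hippocampus, at 3680.5, 3609 and 3709 in WT cortex and at 3335, 3532 and 3809 in 5 × FAD cortex. The 5 × FAD hippocampus was the low group, with library 1 far below the other 11. The group means were 3551 ± 96.2, 2923 ± 557, 3666 ± 51.6 and 3558 ± 238 in the same order (SD, n = 3 each).

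Mirg was at 232, 251 and 261 CPM in WT hippocampus, at 211, 223 and 308 in 5 × FAD hippocampus, at 289, 335 and 293 in WT cortex and at 275, 252 and 277 in 5 × FAD cortex. As for Meg3, libraries 1 and 2 of 5 × FAD hippocampus were the 2 lowest of the 12 and library 3 stood with the WT cortex. The means were 248 ± 14.4, 248 ± 52.7, 305 ± 25.3 and 268 ± 14.1 (SD, n = 3 each).

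**Figure D3:**
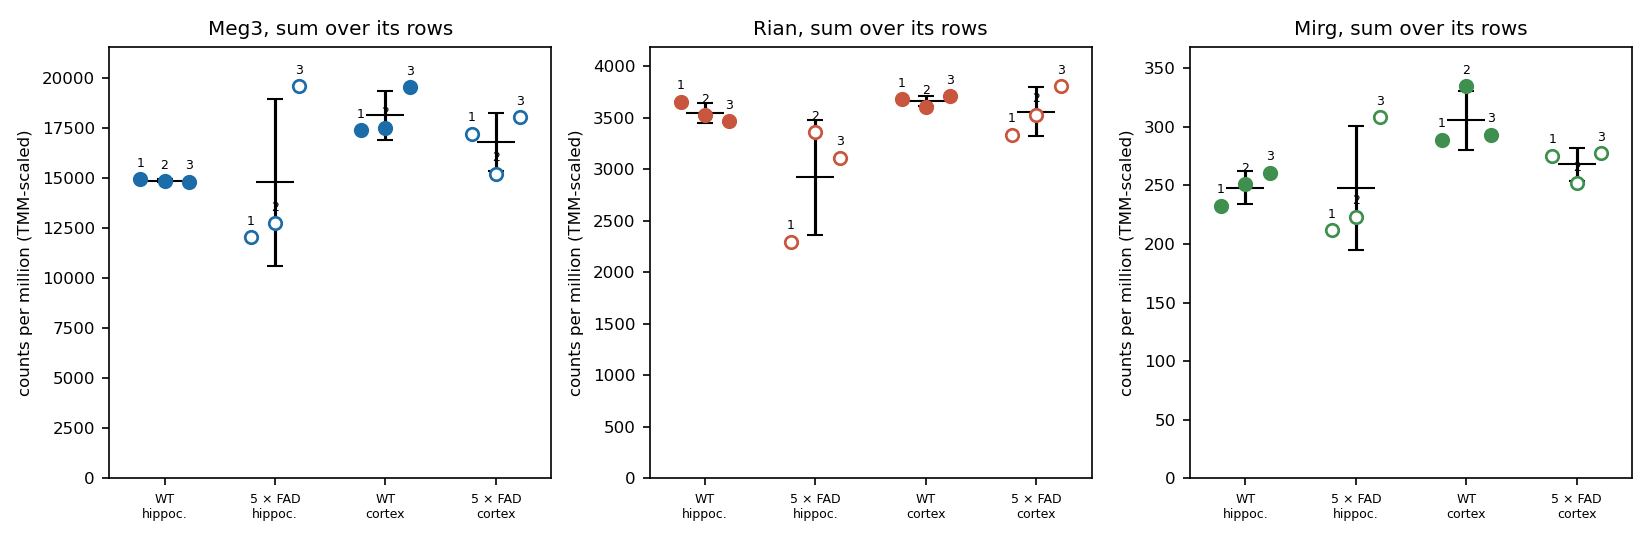
CPM of the gene sums of Meg3, Rian and Mirg by group (vertical axes start at 0; filled points WT, open points 5 × FAD, numbers are replicates, black bars mean ± SD, n = 3). The 5 × FAD hippocampus has the widest spread for all 3 genes, with Meg3 from 12059 to 19604 CPM against 14817 to 14959.7 in WT hippocampus.

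To set the levels of the 3 genes against one another, they were taken per length, as the sum of counts per kb over the rows of a gene. On that scale Meg3 and Rian were near each other and Mirg was far lower. Meg3 was at 0.778 to 1.53 times Rian, with a median of 1.11, and was the higher of the pair in 9 of 12 libraries. Rian was at 12.4 to 21.9 times Mirg and was higher in 12 of 12 libraries, and Meg3 was at 14.5 to 21.04 times Mirg. In WT hippocampus the CPM per kb averaged 2508 ± 95.7 for Meg3, 2513 ± 143 for Rian and 149 ± 22.4 for Mirg (SD, n = 3 each), and the first 2 differed by less than their spread. In the other groups the mean of Meg3 was the higher, at 3014 ± 146 against 2615 ± 184 for Rian in WT cortex. It was 2569 ± 752 against 2250 ± 382 in 5 × FAD hippocampus and 2801 ± 305 against 2510 ± 115 in 5 × FAD cortex (SD, n = 3 each). These figures rest on how reads were divided between rows of different length.

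In the hippocampus, where the question was whether 5 × FAD mice differed from WT, no difference of the 3 genes passed the test. Each gene was compared by the quasi-likelihood test of edgeR, p-values were adjusted over all gene sums tested by the Benjamini-Hochberg method, and a call was an adjusted p under 0.05. The test called 0 of 3 members, against 0.0529% of 11345 gene sums; at an unadjusted p under 0.05 it had 0 of 3 members against 8.68% of all, and DESeq2 also called 0. The 5 × FAD to WT fold was 1.01 for Meg3 (95% interval 0.714 to 1.44, adjusted p = 0.983), 1.02 for Mirg (0.745 to 1.39, adjusted p = 0.976) and 0.838 for Rian (0.624 to 1.13, adjusted p = 0.698) by edgeR. Rian was the only member whose groups did not overlap, with all 3 5 × FAD libraries below all 3 WT libraries; 9.16% of all gene sums tested showed that order.

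The hippocampal values depended on which 5 × FAD libraries were counted. Without 5 × FAD hippocampus library 3, the log2 fold change of Meg3 turned from 0.02 to -0.24 (edgeR adjusted p = 0.424) and that of Mirg from 0.02 to -0.17 (adjusted p = 0.614). Without 5 × FAD 1 and 2, which leaves 1 5 × FAD library that is assumed to vary like the WT group, the log2 fold change was 0.42 for Meg3 (adjusted p = 0.199), 0.33 for Mirg (adjusted p = 0.411) and -0.17 for Rian (adjusted p = 0.528). Marker levels moved with the same libraries. The astrocyte list (4 of 5 markers with a row) summed to 524, 438 and 1082 CPM in 5 × FAD hippocampus 1, 2 and 3 and to 1376 to 1462 in WT hippocampus, while Trem2, a receptor of microglia, was at 178, 187 and 40.5 CPM against 19.4 to 32.3. The neuron list (4 of 5 with a row) summed to 900 to 1086 in 5 × FAD and 1170.3 to 1264 in WT hippocampus, and the oligodendrocyte list (4 of 5 with a row) to 439.96 to 549.7 in 5 × FAD and 297 to 387 in WT. The astrocyte sum was mostly Slc1a3, a glutamate transporter, and Gfap, the intermediate filament of astrocytes, was at 0 in all 3 WT hippocampus libraries and at most at 1.75 CPM elsewhere through its non-coding row. The endothelium list (2 of 3 with a row) summed to 10.98 to 16.6 in 5 × FAD and 16.4 to 19.9 in WT, and the choroid plexus list (2 of 3 with a row, with Folr1 at 0 in every library) to 6.74 to 46.9 and 16.8 to 33.4. The part of these markers in the levels of Meg3, Rian and Mirg was not tested.

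In the cortex, the 3 genes were again within the error of the comparison. edgeR called 0 of 3 members, against 0.0175% of 11409 gene sums; at an unadjusted p under 0.05 it had 0 of 3 against 6.68%, and DESeq2 called 0. The 5 × FAD to WT fold was 0.926 for Meg3 (95% interval 0.733 to 1.17, adjusted p = 0.908), 0.969 for Rian (0.793 to 1.18, adjusted p = 0.967) and 0.876 for Mirg (0.713 to 1.08, adjusted p = 0.804) by edgeR. Mirg was the only member whose groups did not overlap, with 252 to 277 CPM in 5 × FAD cortex below 289 to 335 in WT cortex, an order shown by 6.51% of all gene sums. Without 5 × FAD 1 and 2, again with 1 5 × FAD library assumed to vary like WT, the log2 fold change was -0.01 for Meg3, 0.05 for Rian and -0.14 for Mirg, with edgeR adjusted p-values of 0.996, 0.973 and 0.926. Trem2 was at 232, 183 and 19.8 CPM in 5 × FAD cortex 1, 2 and 3 and at 36.8 to 53.5 in WT cortex, while the oligodendrocyte list summed to 489 to 549 in 5 × FAD and 258 to 417 in WT cortex. The neuron list overlapped, at 1032 to 1368 in 5 × FAD and 1197 to 1697 in WT. Their part in the member levels was not tested.

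Between the regions, WT mice had lower Meg3 and Mirg in the hippocampus than in the cortex, at sizes that did not pass the adjusted test. The hippocampus to cortex fold was 0.808 for Meg3 (95% interval 0.681 to 0.959, adjusted p = 0.193) and 0.801 for Mirg (0.660 to 0.973, adjusted p = 0.226) by edgeR's quasi-likelihood test. For Rian the fold was 0.956 (0.819 to 1.12, adjusted p = 0.799). edgeR thus called 0 of 3 members, against 3.5% of 11431 gene sums; 2 of 3 members had an unadjusted p under 0.05, as did 17.3% of all gene sums, and DESeq2 called 0 with 2 of 3 under that p. All 3 hippocampus libraries were below all 3 cortex libraries for Meg3 and for Mirg, an order shown by 11.8% of gene sums (24.9% in either direction), and the regions overlapped for Rian. This comparison holds no 5 × FAD library, so the libraries with Xist do not enter it. Markers of other cells also differed between the WT regions. The choroid plexus list, all of it Kl, was at 16.8 to 33.4 CPM in hippocampus and 3.66 to 3.9995 in cortex (Kl adjusted p = 0.00876 by edgeR), and Trem2 was at 19.4 to 32.3 and 36.8 to 53.5 (adjusted p = 0.144). The neuron list summed to 1170.3 to 1264 and 1197 to 1697, the astrocyte list to 1376 to 1462 and 872 to 1479, and the oligodendrocyte list to 297 to 387 and 258 to 417, all overlapping. Their part in the regional levels of Meg3 and Mirg was not tested.

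In 5 × FAD mice the same contrast was wider in error. The hippocampus to cortex fold was 0.877 for Meg3 (95% interval 0.595 to 1.29, adjusted p = 0.798), 0.820 for Rian (0.593 to 1.13, adjusted p = 0.623) and 0.922 for Mirg (0.668 to 1.27, adjusted p = 0.859) by edgeR. 0 of 3 members were called against 0.193% of 11404 gene sums, 0 of 3 had an unadjusted p under 0.05 against 12.5%, and DESeq2 called 0. The groups overlapped for all 3 members, where 19.2% of all gene sums had groups apart, 9.75% with the hippocampus below. Without 5 × FAD hippocampus library 3 the log2 difference of Meg3 was -0.45 (adjusted p = 0.295 by edgeR). Without 5 × FAD 1 and 2 there was 1 library per region, and the log2 difference was 0.10 for Meg3 and 0.13 for Mirg, in the other direction, and -0.31 for Rian. The adjusted p-values of 0.889, 0.884 and 0.515 by edgeR take their spread from the WT libraries alone, which were kept in that fit, and assume that 5 × FAD libraries vary like them.

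The test of whether the genotype difference itself differed between hippocampus and cortex (the interaction) called none of the 3. Its log2 value, hippocampus minus cortex, was 0.10 ± 0.25 for Meg3, -0.24 ± 0.21 for Rian and 0.19 ± 0.22 for Mirg (SE), with adjusted p-values of 0.964, 0.848 and 0.898 by edgeR. edgeR called 0 of 12109 gene sums there (0%), 7% of all and 0 of 3 members had an unadjusted p under 0.05, and DESeq2 called 0 members. Without 5 × FAD 1 and 2, under the same assumption, the values were 0.41, -0.24 and 0.45 with adjusted p-values of 0.542, 0.704 and 0.589, and without 5 × FAD hippocampus library 3 Meg3 turned to -0.12 (adjusted p = 0.862).

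**Figure D4:**
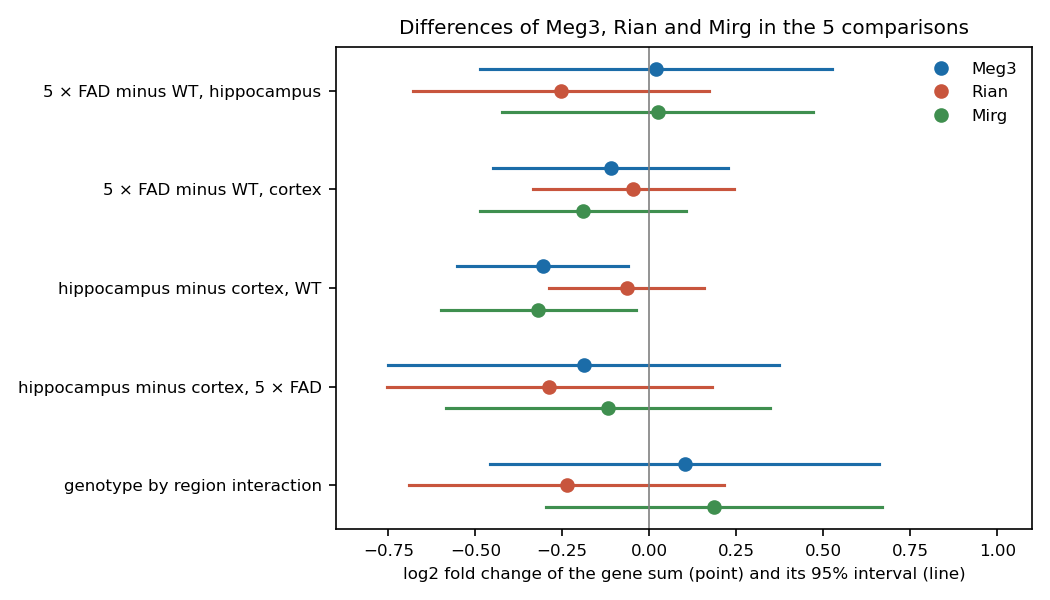
Log2 fold change of the gene sums of Meg3, Rian and Mirg in 5 comparisons (points) with 95% intervals (lines) from edgeR's quasi-likelihood fits. The intervals of Meg3 and Mirg for hippocampus minus cortex in WT, -0.55 to -0.06 and -0.60 to -0.04, are the only ones that do not include 0, and neither passes the adjusted test.

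The 3 genes were also compared as ratios within a library, which do not depend on how libraries are scaled. These are ratios of counts, not per length, and serve to compare libraries. Rian had 0.245, 0.238 and 0.234 counts for each Meg3 count in WT hippocampus, 0.190, 0.264 and 0.159 in 5 × FAD hippocampus, 0.212, 0.206 and 0.190 in WT cortex and 0.194, 0.232 and 0.211 in 5 × FAD cortex. Both the lowest and the highest ratio of the 12 libraries were in 5 × FAD hippocampus. The Mirg to Meg3 ratio was steadier, from 0.0150 to 0.0191 over the 12 libraries, and the Mirg to Rian ratio ran from 0.0636 to 0.0990. Region labels permuted within genotype gave mean log2 differences, hippocampus minus cortex, of 0.08 for Rian to Meg3, 0.04 for Mirg to Meg3 and -0.04 for Mirg to Rian. Genotype labels permuted within region gave differences, 5 × FAD minus WT, of -0.10, -0.03 and 0.07. None of these 6 ratio tests passed: the exact two-sided permutation p-values ran from 0.47 to 0.735, all with an adjusted p of 0.735, where 400 relabelings allow a p as small as 0.005. The relabelings treated the 12 libraries as independent, although both regions were stated to come from each mouse. That smallest p therefore holds only for independent libraries. Inside WT alone, the Rian to Meg3 ratio of hippocampus (0.234 to 0.245) lay wholly above that of cortex (0.190 to 0.212), a log2 difference of 0.24, and inside 5 × FAD the difference was -0.08. Neither of these within-genotype differences was tested on its own.

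Row by row, 33 of the 40 rows passed the filter on low counts in each of the 4 comparisons between 2 groups (11 of Meg3, 15 of Rian and 7 of Mirg), and 35 in the interaction. The 7 that did not pass had at most 51 counts in any library. edgeR called 0 member rows in every comparison, against 0.0183% of 21894 rows for genotype in hippocampus, 0.0545% of 21999 for genotype in cortex, 0.986% of 22007 for region in WT, 0.0182% of 22016 for region in 5 × FAD and 0.00812% of 24632 for the interaction. At an unadjusted p under 0.05 there were 1, 1, 3, 1 and 3 member rows in the same order, where 7.58%, 5.34%, 12.8%, 9.38% and 6.89% of all rows had one, and by DESeq2 2, 1, 3, 3 and 4 with 0 called. In the hippocampus the groups did not overlap for 8 of 33 rows (24.2%) against 15.7% of all rows, and 6 of the 8 had 5 × FAD below, an order shown by 8.39% of all rows. In the cortex this held for 3 of 33 (9.09%) against 12.1%, all 3 with 5 × FAD below, against 5.9%. Between regions in WT it held for 8 of 33 (24.2%) against 20.6%, all 8 lower in hippocampus, an order shown by 9.61%. In 5 × FAD it held for 3 of 33 (9.09%) against 17%, all 3 lower in hippocampus, against 8.76%. Rows of a gene share exons and reads, so they are not separate observations of it.

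The leading row of Meg3 makes up 83.4% to 86.0% of the gene's counts, so it had to follow the gene sum. ENSMUST00000146701 was at 12617, 12774 and 12566 CPM in WT hippocampus, 10168 to 16413 in 5 × FAD hippocampus, 15082, 14835 and 16659 in WT cortex and 13349 to 15316 in 5 × FAD cortex. Its region difference in WT was -0.31 ± 0.10 (log2, SE, adjusted p = 0.256 by edgeR), with the groups apart. For ENSMUST00000129245, annotated from the first start, the WT hippocampus values were 1563, 1417 and 1500.4 CPM. Its 5 × FAD hippocampus values were 1129, 1187 and 2097 CPM. WT cortex libraries gave 1698, 1748 and 1855 CPM, while 5 × FAD cortex libraries gave 1787, 1447 and 1809.7 CPM. Among the hippocampus libraries, both rows were highest in 5 × FAD library 3, at 16413 and 2097 CPM. Use of the 2 annotated starts was not measured. The third, ENSMUST00000143836, ran from 142 to 420 CPM, with its lowest value in 5 × FAD hippocampus 1 and its highest in 5 × FAD cortex 3.

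For Rian, ENSMUST00000181253 was at 1394, 1546 and 1535 CPM in WT hippocampus, 844, 1331 and 1330.3 in 5 × FAD hippocampus, 1591, 1636 and 1551 in WT cortex and 1349, 1493 and 1736 in 5 × FAD cortex. All 3 of its 5 × FAD hippocampus values were below the other 9. ENSMUST00000182981 (198 to 463 CPM) and the single-exon ENSMUST00000182406 (202 to 490.2 CPM) also had their lowest value in 5 × FAD hippocampus 1. The 1 member row with an unadjusted p under 0.05 between regions in 5 × FAD was ENSMUST00000182088, at 24.4, 45.0 and 68.0 CPM in the hippocampus and 92.8, 130 and 169 in the cortex, a log2 difference of -1.51 ± 0.42 (adjusted p = 0.354 by edgeR), and it was named after its values were seen. In WT it was at 106, 78.8 and 88.9 in hippocampus and 196, 113 and 106 in cortex, and it has no exonic base of its own.

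For Mirg, ENSMUST00000181496 was at 53.6, 95.5 and 88.0 CPM in WT hippocampus, 71.9, 79.7 and 127 in 5 × FAD hippocampus, 97.4, 99.9 and 110 in WT cortex and 55.3, 84.7 and 62.1 in 5 × FAD cortex. In the cortex its 5 × FAD libraries were all below its WT libraries, at a log2 difference of -0.61 ± 0.20 (adjusted p = 0.907 by edgeR). ENSMUST00000182185 ran from 23.1 to 77.9 CPM and ENSMUST00000183144 from 23.3 to 57.1, each with its highest value in 5 × FAD cortex 1, the library with the second lowest ENSMUST00000181496. The 2 Mirg rows that entered the interaction fit alone, ENSMUST00000182231 (0 to 42 counts) and ENSMUST00000183116 (0 to 30 counts), had 0 counts in all 3 WT cortex libraries, so no fold is given for them.

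Rows differed widely in how steady they were over the libraries. Of the 40 rows, 20 had no exonic base that is not also in another row of the gene. Among the 30 rows with a mean of at least 50 counts, a limit set after the values were seen, the coefficient of variation (CV) over 12 libraries had a median of 30.5% (12.8% to 123%) for the 12 rows with no unique base, 26.0% for the 5 with some but under 10%, and 18.8% (13.2% to 38.3%) for the 13 with at least 10% of their bases unique. Of the 6 rows whose highest CPM was at least 4 times the lowest, 5 had no unique base. The most variable, Meg3 ENSMUST00000126289, was at 23.3 to 28.5 CPM in WT hippocampus, 33.6 to 70.4 in WT cortex and 19.6 to 45.8 in 5 × FAD cortex, but at 259, 13.5 and 66.2 in 5 × FAD hippocampus. Rian ENSMUST00000182737 was at 342, 165 and 141 CPM in WT hippocampus and 285, 59.6 and 56.4 in WT cortex, and at 258, 328 and 50.9 in 5 × FAD hippocampus and 185, 135 and 46.9 in 5 × FAD cortex. Replicate 1 was the highest of its group in all but 5 × FAD hippocampus, where replicate 2 was, and replicate 3 was the lowest in all 4 groups. The gene sums had CVs of 15.1% for Meg3, 11.8% for Rian and 13.5% for Mirg. Spearman's rho over the 30 rows was -0.51 between percent of unique bases and CV and -0.53 between mean count and CV, and rows with more unique bases also had more counts (rho 0.34). The points share libraries and reads.

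**Figure D5:**
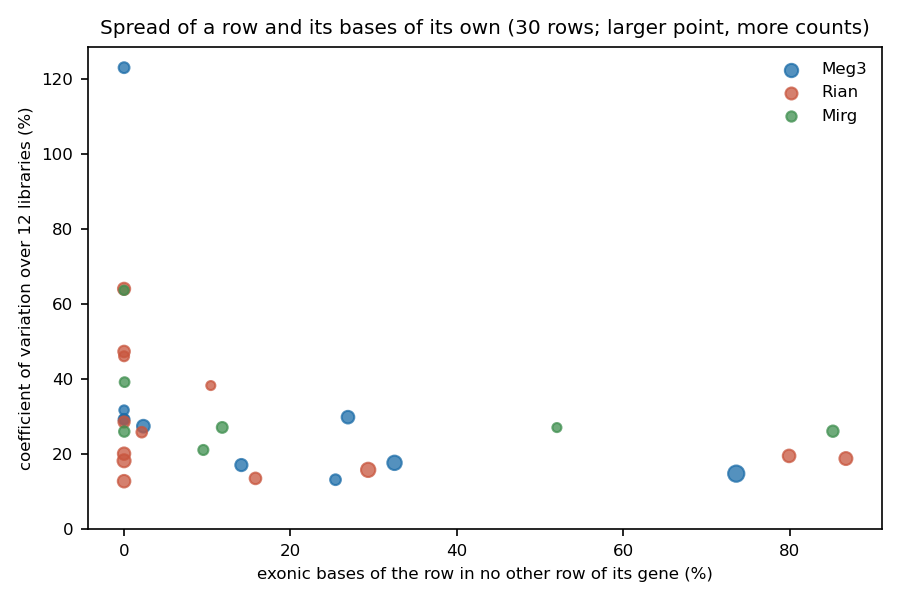
CV over the 12 libraries (vertical axis, %) against the percent of a row's exonic bases that no other row of its gene contains (horizontal axis), for the 30 rows with a mean count of at least 50; larger points have more counts. Rows with a CV above 40% all sit at 0% unique bases, up to 123% for Meg3 ENSMUST00000126289.

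The rest of the Dlk1-Dio3 region gave little signal in this table. Between the start of Begain and the end of Dio3 (chr12:109032187-110281097), GENCODE lists 119 genes besides the 3, of which 69 are miRNA and 23 snoRNA genes; 13 have a row and 4 passed the filter in every comparison, Begain, Gm26945, B830012L14Rik and Dio3os, with 0 of 4 called. Gm26945 is a lincRNA on the same strand inside the span of Rian, with 0 exonic bases in common with it, and had 144 to 281 CPM. B830012L14Rik lies on the same strand in the gap between Rian and Mirg and had 68.1 to 136 CPM, with the lowest value in 5 × FAD hippocampus 1, as for Rian. Gm26906, antisense to the end of Meg3, had 0 to 2 counts, and all of its 1228 exonic bases are also in exons of Meg3. Whether counting used strand is not given. Dlk1, which encodes a paternally expressed Notch-like transmembrane protein, averaged 0.259 CPM through its 1 row, and Rtl1 and Dio3 had no row here.

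The other gene sums that moved most like the members across libraries were named by Pearson's r of log2(CPM + 1) after subtracting each group's mean, over 12 libraries and 7917 other gene sums with a mean of at least 10 CPM. The libraries share depth and scaling, and r is a description. For Meg3 these were Epha10 (r = 0.978), the assembled locus MSTRG.14450 (0.964), Fxr2 (0.962), Lpcat4 (0.949) and MSTRG.8914 (0.947). For Rian they were MSTRG.2301 (0.952), Elavl1 (0.950), MSTRG.9785 (0.945), Gnao1 (0.944) and MSTRG.6776 (0.929). For Mirg they included Pfkl (0.960), Bicdl1 (0.926), the transcript ENSMUST00000142222 (0.925) and Rpl27 (0.925). The members were not one another's nearest: Meg3 and Mirg had r = 0.841, which ranked 104 from Meg3 and 60 from Mirg, Meg3 and Rian had r = 0.412 and Rian and Mirg 0.325.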

How the data were processed

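Per the labels, rRNA-depleted total RNA was made into stranded paired-end libraries, and the submitters' processing notes name Trimmomatic 0.36 and edgeR; which aligner, counter, build and annotation were used is not given in the sources used here. The authors deposited whole-number counts per transcript, not normalized, in 1 table with 2436 assembled rows and 45597 Ensembl rows, of which 45372 matched GENCODE M21 (GRCm38) and 225 did not. How reads common to several rows were divided is not given and sets the counts of rows that share exons. Rows were summed per gene, low features were removed with filterByExpr, and edgeR 4.0.16 (TMM, quasi-likelihood test, R 4.3.3) was run on the groups compared, or on all 12 libraries for the interaction (for regions in 5 × FAD without 5 × FAD 1 and 2, with the WT groups in the fit), with Benjamini-Hochberg adjustment over all features tested. CPM used TMM over 12 libraries. Ratios used exact permutation tests with a pseudocount of 0.5. Total counts of 3517967 to 5014389 limit the precision of rows with few counts; intervals cover the spread between these 12 libraries.

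Replicate numbers came from the codes in the sample titles. Deviations of same-numbered libraries correlated at r = 0.0583, 0.0920 and 0.303 for numbers 1, 2 and 3 between regions in 5 × FAD. In the other 3 pairs of groups r was -0.083 to 0.0377. A WT and a 5 × FAD group hold different mice, so r between them does not bear on pairing. Between regions not every r passed 0.1, and the labels do not match libraries to mice, so fits had no block. The 2 regions of a mouse thus entered the region and interaction fits as independent libraries. Replicates of a group were taken as separate mice, from the stated 2 females and 1 male per group. Only if that is so do p-values measure the spread between mice. Xist and Y-linked counts did not show the stated sexes in the WT groups. The labels do not say which mouse gave which library. Alternatives were DESeq2 1.42.0, its size factors or no scaling factor in edgeR, other filters and pseudocounts, counts per kb for ratios, all libraries in 1 fit, a replicate block and leaving out libraries. Values were named by a rule: the 3 gene sums, the 3 rows of each gene with the highest mean CPM, any row called, and the 5 most alike gene sums. The members and lists were chosen with earlier results of these data known. The scripts were tested on simulated data. A few genes that these rules name are not reported here.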

Additional observations from a re-analysis of the deposited data

How the results depend on the processing

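The number of members called by the 5 comparisons was 0 for the gene sums and 0 for the rows in each of 158 fits, including those that left out 1 library (0 to 0), the fits without 5 × FAD 1 and 2, DESeq2, and the replicate block. For the 6 ratio tests it was also 0 in every setting. With a replicate block the hippocampal genotype log2 difference of Meg3 turned from 0.02 to -0.0164 (edgeR adjusted p = 0.986), and the block changed no call; the same-numbered libraries share only a number, and 0 or 1 of 3 libraries in each pair of groups correlated best with its own number. With all 12 libraries in 1 fit the hippocampal differences of Meg3 and Mirg were -0.0068 and -0.0026. Leaving out 1 library at a time, the hippocampal genotype difference ran from -0.24 to 0.14 for Meg3 and from -0.17 to 0.12 for Mirg, and the interaction of Meg3 from -0.12 to 0.24. Without 5 × FAD 1 and 2, the differences that turned sign were Rian in cortex (0.0515), Meg3 and Mirg between regions in 5 × FAD (0.10 and 0.13), and the regional ratio differences of Rian to Meg3 (-0.0856) and Mirg to Rian (0.0955). Leaving out 1 library, the regional ratio differences ran from -0.0221 to 0.161 for Rian to Meg3, from -0.0064 to 0.0816 for Mirg to Meg3 and from -0.0996 to 0.0444 for Mirg to Rian, and the genotype difference of Mirg to Meg3 from -0.0697 to 0.0183. With counts per kb, the genotype difference of Mirg to Rian was -0.0440. The cause of these turns was not tested. The other 443 values kept their direction and their side of the threshold. With 3 libraries per group, the 95% intervals of the gene sums reached down to a fold of 0.593 and up to 1.59.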

Other observations

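Among 13 other imprinted genes listed for comparison, 10 had a row in the table. Kcnq1ot1, the paternally expressed antisense RNA that silences neighbours in cis, was at 2891 to 3132 CPM in WT hippocampus, 2265 to 2735 in 5 × FAD hippocampus, 2934 to 3165 in WT cortex and 3029 to 3119 in 5 × FAD cortex, so that its 5 × FAD hippocampus libraries were the 3 lowest of the 12, as for the top row of Rian. Its edgeR adjusted p was 0.674 for genotype in hippocampus. Snhg14, the host of the Prader-Willi region snoRNAs, was at 3247 to 4606 CPM, with its highest values in 5 × FAD hippocampus 1 and 2, the libraries with the lowest Meg3. Peg13 was at 1484 to 1753 CPM in 5 × FAD hippocampus and 1896 to 2198 in WT hippocampus. edgeR's quasi-likelihood test called none of the 9 or 10 listed genes that passed the filter, in any of the 5 comparisons; the lowest adjusted p was 0.145, between regions in WT. Gnas, through its non-coding rows, varied from 107 to 2444 CPM with no order by group, and Peg3 was at 12.0 CPM in 5 × FAD hippocampus 2 and 339 to 554 CPM in the other 11 libraries.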
